A study of Mus musculus with 5 samples.

Results

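The RasGRP exchange factors and the diacylglycerol kinases handle the lipid that phospholipase C-γ1, the product of Plcg1, releases in the membrane. The genes described here are the 10 listed members of both families found by symbol among the 27526 genes of the authors' normalized table: Rasgrp1, Rasgrp2, Rasgrp3 and Rasgrp4, and Dgka, Dgkg, Dgkd, Dgkh, Dgke and Dgkz. All 10 passed the filter on low counts, which left 16120 genes in all. RNA was profiled from mouse leukaemia cells described as Kit-positive stem cells of an AML1-ETO9a model, a shortened form of the RUNX1-RUNX1T1 fusion of human acute myeloid leukaemia, a model that the labels give for every library. The leukaemia cells had the genotype Plcg1 -/- by conditional deletion (3 libraries, here deleted 2, 4 and 6), and the others had Plcg1 +/+ (2 libraries, wild-type 1 and 3). The strain, the age of the mice and the agent that made the deletion are not stated in the labels. Whether the libraries came from separate mice is not stated there either. So p-values here speak only of how these 5 samples vary. That variation may be technical, other than for deleted 6, whose sex-linked transcripts differ from those of the other libraries.

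Diacylglycerol made by phospholipase C recruits RasGRP proteins through their C1 domains, and RasGRP proteins then load the small GTPases RAS or RAP1 with GTP. Diacylglycerol kinases phosphorylate the same lipid to phosphatidic acid and so end its signal. Both families are best known from lymphocytes, platelets, mast cells and myeloid cells, where the balance between them sets how strongly receptor signals reach the MAP kinases.

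The libraries held 37306507 to 57133771 gene counts, so 3 counts correspond to 0.0526 to 0.0723 CPM (counts scaled for the depth of each library), a limit that covers counting error only. Plcg1 itself was at 53.0, 26.9 and 37.1 CPM in deleted 2, 4 and 6, against 22.1 and 34.0 CPM in wild-type 1 and 3. Counts per gene include exons outside a deleted part, and the gene Zhx3 lies across Plcg1 on the other strand, so these values do not check the deletion. Deleted 6 stood apart from the other 4 libraries. The selection marker Kit had a level of 672, 304 and 3.08 CPM in deleted 2, 4 and 6, against 26.8 and 32.1 CPM in wild-type 1 and 3. The X inactivation transcript Xist had 5375 counts in deleted 6 and no more than 3 elsewhere, while Ddx3y, on the Y chromosome, had 12 counts there and at least 2811 elsewhere. Deleted 6 thus had the transcripts of female cells and the other 4 libraries those of male cells. For deleted 6, sex and genotype cannot be told apart. Runx1t1, the mouse gene of the ETO part of the fusion, had 6035, 3921 and 598 counts in deleted 2, 4 and 6, against 5 and 13 counts in wild-type 1 and 3. The Runx1t1 counts of wild-type 1 and 3 go against the labelled fusion model, if the fusion's reads were counted there. Group names therefore refer to the labels, and the fold changes of the 10 members are given with and without deleted 6. In bulk RNA, fewer cells of a type and less RNA per cell cannot be told apart.

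The promoters of the members that differed most between libraries are shown because Rasgrp2 and Dgkg were low together in deleted 6 while Rasgrp1 and Rasgrp3 were high there. Each is the run of 250 bases before a transcript start in RefSeq on GRCm38.p6, the build of mm10, written 5′ to 3′ on the gene's strand. RefSeq promoters were found for 9 of the 10 genes, 17 in all, with Rasgrp4 not among them. Capitals mark a motif match on either strand. For RUNX proteins the letters searched were TGTGGT. Binding sites of GATA factors were searched as AGATAA. For PU.1, a myeloid ETS factor, the letters were GAGGAAGT. The motifs do not overlap in the printed runs.
Rasgrp1 (chr2:117342878-117343127, minus strand): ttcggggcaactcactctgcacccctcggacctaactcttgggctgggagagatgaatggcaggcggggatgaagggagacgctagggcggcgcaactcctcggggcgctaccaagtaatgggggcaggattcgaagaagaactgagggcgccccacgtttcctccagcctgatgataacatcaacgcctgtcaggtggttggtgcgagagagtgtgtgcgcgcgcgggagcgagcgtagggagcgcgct
Rasgrp2, upstream start (chr19:6399625-6399874, plus strand): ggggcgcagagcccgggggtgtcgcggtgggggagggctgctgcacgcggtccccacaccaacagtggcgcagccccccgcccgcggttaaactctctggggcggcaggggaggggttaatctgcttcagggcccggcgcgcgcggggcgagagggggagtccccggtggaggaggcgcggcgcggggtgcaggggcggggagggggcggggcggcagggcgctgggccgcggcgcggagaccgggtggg
Rasgrp2, downstream start (chr19:6401455-6401704, plus strand): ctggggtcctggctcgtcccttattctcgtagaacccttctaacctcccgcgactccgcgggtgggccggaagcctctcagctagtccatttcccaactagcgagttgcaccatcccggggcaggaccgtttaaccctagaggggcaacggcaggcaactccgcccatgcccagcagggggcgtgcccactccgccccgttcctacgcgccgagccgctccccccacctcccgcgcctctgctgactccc
Rasgrp3, upstream start (chr17:75435655-75435904, plus strand): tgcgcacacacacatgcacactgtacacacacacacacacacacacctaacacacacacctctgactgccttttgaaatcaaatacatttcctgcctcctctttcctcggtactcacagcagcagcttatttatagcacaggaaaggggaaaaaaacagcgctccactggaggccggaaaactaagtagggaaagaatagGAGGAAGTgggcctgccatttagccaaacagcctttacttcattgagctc
Dgkg (chr16:22657232-22657481, minus strand): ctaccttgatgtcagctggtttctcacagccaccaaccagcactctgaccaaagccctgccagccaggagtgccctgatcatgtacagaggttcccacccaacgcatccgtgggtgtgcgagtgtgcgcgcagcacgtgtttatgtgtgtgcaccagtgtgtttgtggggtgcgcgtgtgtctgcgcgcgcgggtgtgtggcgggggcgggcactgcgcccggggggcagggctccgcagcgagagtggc

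The RUNX motif was in 0 of the 17 promoters and in 14% of the 32851 promoters searched. The GATA motif was in 1 of 17, at a Dgkh start, and in 9.99% of all. The PU.1 motif was in 2 of 17, at the printed Rasgrp3 start and at a Dgkz start, and in 2.44% of all. These are matches of letters in a short window and say nothing of binding. The GC content was 79.6% and 67.2% before the upstream and downstream Rasgrp2 starts and 64.8% before the Dgkg start. It was 62.4% for Rasgrp1 and 47.6% and 52.8% for the upstream and downstream Rasgrp3 starts. The downstream Rasgrp3 start, which is not printed, had no match of any motif.

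Among the RasGRP genes, Rasgrp2 encodes an exchange factor that acts mainly on RAP1, is driven by calcium and is known from platelet and neutrophil integrin activation. Rasgrp2 had 74.1, 63.6 and 0.498 CPM in deleted 2, 4 and 6, against 94.1 and 102 CPM in wild-type 1 and 3. All 3 deleted libraries lay below both wild-type libraries, and deleted 6 lay far below every other library, with 22 counts where the others had 3368 to 5650. As a log2 fold change (deleted minus wild-type) this came to -1.09 ± 1.53 (SE; adjusted p = 0.720 by edgeR's quasi-likelihood test). Without deleted 6 it was -0.50 ± 0.14, with an adjusted p of 0.0676. The wild-type mean was 197 times the value in deleted 6 and 1.42 times the mean of deleted 2 and 4.

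Rasgrp1, the diacylglycerol-driven RAS exchange factor of T cells and mast cells, had the opposite order in deleted 6. Rasgrp1 had 2.45, 3.55 and 27.1 CPM in deleted 2, 4 and 6, against 5.11 and 5.44 CPM in wild-type 1 and 3. Deleted 2 and 4 lay below both wild-type libraries and deleted 6 lay above them, at 5.14 times their mean. Its log2 fold change of 1.06 ± 1.14 (SE; adjusted p = 0.645, edgeR) turned to -0.80 ± 0.30 without deleted 6 (adjusted p = 0.141).

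Rasgrp3, which acts on both RAS and RAP1 and is known from B cells and macrophages, had low counts. Rasgrp3 had 1.07, 1.70 and 6.35 CPM in deleted 2, 4 and 6, against 0.289 and 2.41 CPM in wild-type 1 and 3. The wild-type libraries differed from each other by 8.34-fold, with 12 and 134 counts, and deleted 2 and 4 lay between them. On the log2 scale the difference was 1.16 ± 1.19 (SE; adjusted p = 0.630, edgeR). Leaving out deleted 6 gave 0.03 ± 0.84 (adjusted p = 0.988, edgeR). It was 3.38 without wild-type 3 and 0.33 without wild-type 1, so the wild-type library kept sets its size.

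Rasgrp4, an exchange factor described in mast cells and immature myeloid cells, was at 19.99, 18.8 and 3.08 CPM in deleted 2, 4 and 6, against 9.62 and 13.6 CPM in wild-type 1 and 3. Deleted 2 and 4 lay above both wild-type libraries, at 1.67 times their mean, and deleted 6 lay below them. Its fold change was 0.27 ± 0.80 on the log2 scale (SE; adjusted p = 0.869, edgeR). Leaving out deleted 6 gave 0.75 ± 0.22 (adjusted p = 0.0762, edgeR). Rasgrp4 shares 978 exon bases with Fam98c on the opposite strand and the kit did not mark strand, so part of its reads is uncertain; Fam98c was at 10.6 to 12.5 CPM in deleted libraries, against 14.5 and 15.9 CPM in wild-type 1 and 3.

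**Figure D1:**
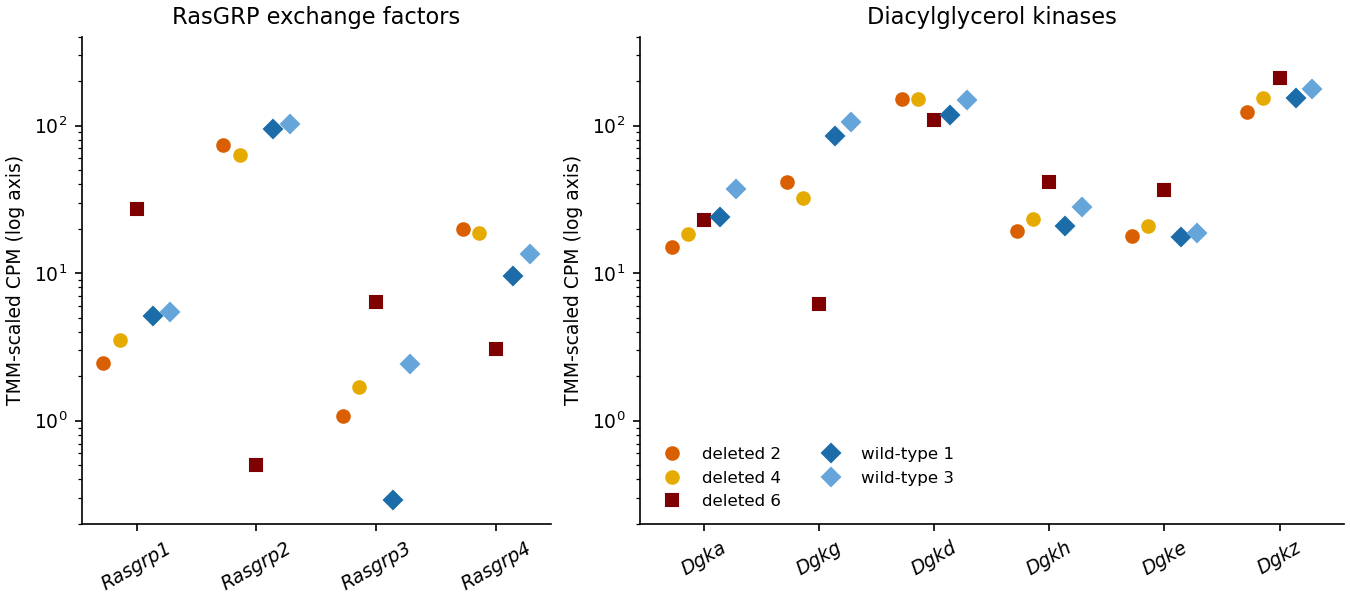
Level of each RasGRP gene (left) and diacylglycerol kinase gene (right) in each library, in TMM-scaled CPM on a log axis; each point is 1 library, with deleted libraries left of wild-type ones. Deleted 6 (square) lies apart from the other points for Rasgrp1, Rasgrp2 and Dgkg, at 27.1, 0.498 and 6.20 CPM, while Dgkd stays between 110 and 153 CPM.

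Per kilobase of exon, the mix of RasGRP transcripts differed more between libraries than their sum. The sum was 9.75, 9.01 and 6.46 CPM per kb in deleted 2, 4 and 6, against 10.1 and 11.7 CPM per kb in wild-type 1 and 3. Rasgrp2 gave 61.4%, 57.0% and 0.622% of it in deleted 2, 4 and 6, against 75.4% and 70.0% in wild-type 1 and 3. Rasgrp4 gave 32.2% and 32.7% in deleted 2 and 4 and 7.49% in deleted 6, against 15.01% and 18.2% in wild-type 1 and 3. In deleted 6 Rasgrp1 gave 75.04% and Rasgrp3 16.9%, against 4.49% to 9.06% and 0.492% to 3.52% in the other 4 libraries. Rasgrp2 led in 4 libraries and Rasgrp1 in deleted 6, also per kilobase of coding sequence, where Rasgrp2 gave 78.4%, 75.4% and 1.64% in deleted 2, 4 and 6, against 88.1% and 84.7% in wild-type 1 and 3. The sum by coding length was 50.3, 44.9 and 16.1 CPM per kb in deleted 2, 4 and 6, against 56.8 and 63.9 CPM per kb in wild-type 1 and 3. By that length the sum in deleted 6 lay further below the other 4 libraries than by exon length. Shares were not tested, because 2 libraries against 3 cannot give an exact two-sided permutation p under 0.1.

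**Figure D2:**
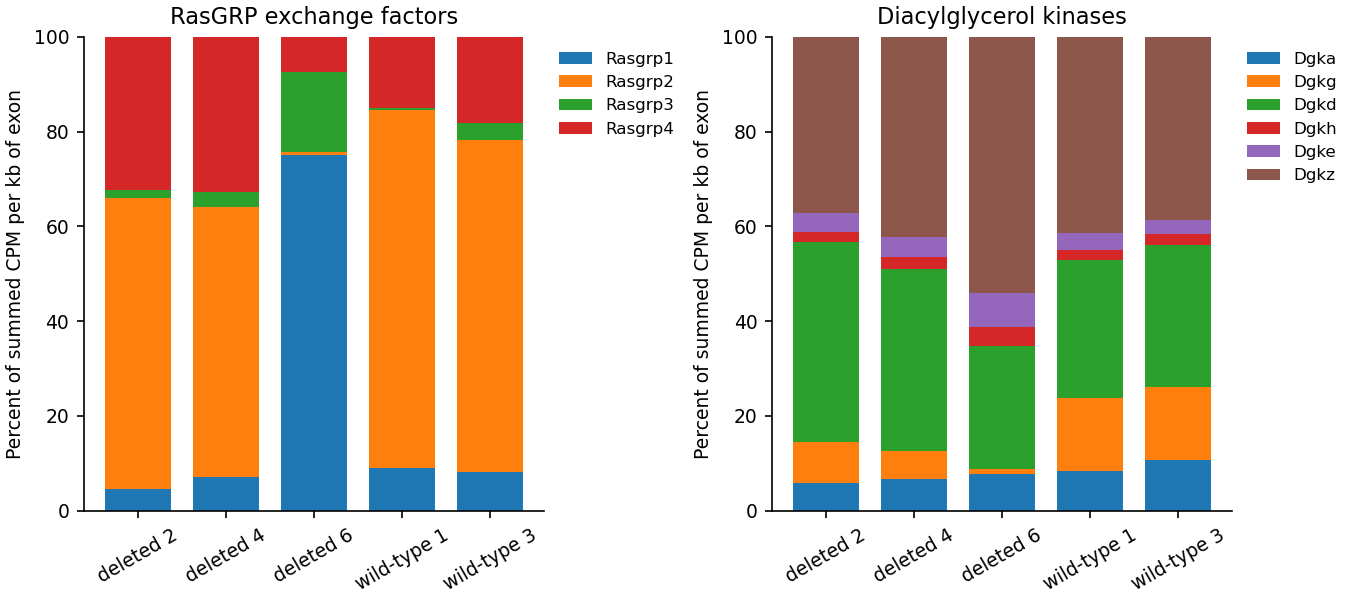
Share of each gene in its family's summed CPM per kilobase of exon, for the RasGRP genes (left) and the 6 diacylglycerol kinase genes (right); each bar is 1 library and adds to 100%. Rasgrp2 holds 57.0% to 75.4% in 4 libraries and 0.622% in deleted 6, where Rasgrp1 holds 75.04%; Dgkz and Dgkd together fill most of each kinase bar.

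Markers of cell types known for these genes moved with some of them. The 10 mast cell markers summed to 11270, 5106 and 37.1 CPM in deleted 2, 4 and 6, against 89.2 and 139 CPM in wild-type 1 and 3, with every deleted library above both wild-type libraries for 3 of 10, against 22.4% of all tested genes. The 6 stem and progenitor markers, among them Kit, which the mast cell list also holds, summed to 997, 550 and 6.56 CPM in deleted 2, 4 and 6, against 292 and 304 CPM in wild-type 1 and 3. Against 23.7% of all tested genes, 2 of the 6 lay below both wild-type libraries in every deleted library. Of these, Hoxa9, a homeobox factor of immature cells, was at 0.841, 1.66 and 0.0678 CPM in deleted 2, 4 and 6, against 144.6 and 127.9 CPM in wild-type 1 and 3, and its partner Meis1 at 8.65, 6.79 and 0.317 CPM, against 79.1 and 84.5 CPM. The 6 erythroid markers summed to 43.3, 18.0 and 1.04 CPM in deleted 2, 4 and 6, against 2.51 and 2.72 CPM in wild-type 1 and 3. Rasgrp4, like the mast cell, stem and erythroid sums, was high in deleted 2 and 4 and low in deleted 6. Rasgrp1, also known from mast cells, went the other way, at 2.45, 3.55 and 27.1 CPM in deleted 2, 4 and 6. In wild-type 1 and 3 Rasgrp1 was at 5.11 and 5.44 CPM. The 10 neutrophil markers summed to 14990, 17050 and 1391 CPM in deleted 2, 4 and 6, against 18990 and 20620 CPM in wild-type 1 and 3. In every deleted library 5 of 10 lay below both wild-type libraries, against 23.7% of all tested genes, and 1, Mmp8, lay above, against 22.4%. Mmp8 was at 853, 1204 and 1278 CPM in deleted 2, 4 and 6, against 715 and 517 CPM in wild-type 1 and 3, and so made up most of the sum in deleted 6. Rasgrp2 had the same order of groups as the neutrophil sum. The 9 platelet markers summed to 361, 525 and 556 CPM in deleted 2, 4 and 6, against 85.7 and 77.9 CPM in wild-type 1 and 3. Of these, 7 were tested, and 3 (Pf4, Itgb3 and Vwf) lay above in every deleted library, against 22.4% of all tested genes. In deleted 6 Pf4, Itgb3 and Vwf were at 238, 161 and 156 CPM and made up nearly all of the sum. Itga2b, Gp1ba, Ppbp and Gp9 were at 0.837, 0.20, 0.045 and 0 CPM there. The 10 monocyte and macrophage markers summed to 9252, 19240 and 73910 CPM in deleted 2, 4 and 6, against 12290 and 11840 CPM in wild-type 1 and 3, of which Lyz2 made up 68120 CPM in deleted 6. Of these markers 2 lay above and 2 below both wild-type libraries in every deleted library, against 22.4% and 23.7% of all tested genes. The part of mast cell, progenitor, erythroid, neutrophil, platelet and macrophage RNA in these values was not tested.

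Of the 10 T cell markers Cd3e, Cd3g and Trbc2 had 0 counts in all 5 libraries. Cd3d had at most 1 count in a deleted and 2 in a wild-type library, Trac at most 1 in a deleted library and 6 in each wild-type one, and Cd4 7 to 13 in deleted libraries and 8 in each wild-type one. The list summed to 41.7 to 117 CPM in deleted libraries, against 42.8 and 53.3 CPM in wild-type 1 and 3, of which Cd28 made up 37.9 to 111 CPM and 38.4 and 48.5 CPM. Of its 4 tested members 1 lay below in every deleted library and 0 above, against 23.7% and 22.4% of all tested genes. The 8 B cell markers summed to 36.1, 53.8 and 181 CPM in deleted 2, 4 and 6, against 28.1 and 38.7 CPM in wild-type 1 and 3, of which the adaptor gene Blnk made up 31.6, 46.6 and 181 CPM in deleted 2, 4 and 6, against 11.4 and 16.9 CPM in wild-type 1 and 3. Cd79b, a B cell receptor subunit, went the other way, at 3.91, 6.40 and 0 CPM in deleted 2, 4 and 6, against 15.6 and 20.9 CPM in wild-type 1 and 3. Of the 5 tested members 1 lay above and 1 below in every deleted library, against 22.4% and 23.7% of all tested genes. The 5 NK cell markers, 1 of them tested, summed to 33.0, 27.3 and 0.430 CPM in deleted 2, 4 and 6, against 74.5 and 105 CPM in wild-type 1 and 3. Nkg7, a cytotoxic granule gene, made up 33.0, 27.2 and 0.407 CPM in deleted 2, 4 and 6, against 74.4 and 104.8 CPM in wild-type 1 and 3, while Ncr1 had 0 counts in every library and Klrb1c and Gzma at most 2. The part of lymphoid RNA was not tested.

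Among the diacylglycerol kinases, Dgkg separated the labelled groups most clearly. It encodes a type I kinase, the class with calcium-binding EF hands. Dgkg was at 41.7, 32.5 and 6.20 CPM in deleted 2, 4 and 6, against 84.5 and 105 CPM in wild-type 1 and 3. All 3 deleted libraries were below both wild-type ones, and deleted 6 was the lowest. The means were 26.8 ± 18.4 CPM (SD, n = 3) in deleted and 94.8 ± 14.6 CPM (SD, n = 2) in wild-type libraries. The log2 fold change across all 5 libraries was -1.82 ± 0.75 (SE) and did not pass edgeR's test (adjusted p = 0.347). Without deleted 6 Dgkg fell by 1.34 on the log2 scale (SE 0.18; edgeR adjusted p = 0.00655), and limma-voom with sample weights called it across all 5 libraries (-1.52, adjusted p = 0.0228). In sequencing lane 4 of the file names, which holds deleted 2 and 4 and wild-type 3, it was -1.49 with an adjusted p of 0.0524 in edgeR, a test in which wild-type 3 is assumed to vary as deleted 2 and 4 do. Lane 3 held wild-type 1 alone and lane 5 deleted 6 alone, so neither gives a value.

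Dgka, the other type I member and known for limiting diacylglycerol in T cells, had a smaller difference in the same direction. Dgka had 15.0, 18.3 and 23.0 CPM in deleted 2, 4 and 6, against 24.0 and 37.2 CPM in wild-type 1 and 3. The groups did not overlap, but deleted 6 lay close to wild-type 1, and the wild-type libraries differed by 1.55-fold. Its log2 fold change was -0.70 ± 0.30 (SE; adjusted p = 0.354, edgeR). Leaving out deleted 6 gave -0.87 ± 0.25 (adjusted p = 0.0697, edgeR). It was -0.35 without wild-type 3 and -0.99 without wild-type 1.

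The type II members Dgkd and Dgkh, large kinases with a split catalytic domain, overlapped between groups. Dgkd was at 153, 153 and 110 CPM in deleted 2, 4 and 6, against 118 and 149 CPM in wild-type 1 and 3. Its highest library was 1.39 times its lowest, the smallest ratio of the 10 genes. On the log2 scale it differed by 0.05 ± 0.24 (SE; adjusted p = 0.924, edgeR), and by 0.20 ± 0.15 with deleted 6 left out (adjusted p = 0.460, edgeR). Dgkh was at 19.3, 23.3 and 41.5 CPM in deleted 2, 4 and 6, against 20.9 and 28.2 CPM in wild-type 1 and 3. Deleted 6 was highest, at 1.69 times the wild-type mean, and the log2 fold change came to 0.19 ± 0.39 (SE; adjusted p = 0.811, edgeR). It turned to -0.20 ± 0.21 with deleted 6 left out (adjusted p = 0.608, edgeR).

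Dgke, the type III kinase that prefers arachidonate-containing diacylglycerol, was at 17.8, 20.9 and 36.7 CPM in deleted 2, 4 and 6, against 17.6 and 18.6 CPM in wild-type 1 and 3. Only deleted 6 stood apart, at 2.03 times the wild-type mean. Over all 5 libraries the log2 fold change came to 0.47 ± 0.37 (SE; adjusted p = 0.545, edgeR), and to 0.11 ± 0.18 with deleted 6 left out (adjusted p = 0.758, edgeR). Dgkz, the type IV kinase with ankyrin repeats that restrains RAS signalling in T cells, was at 123, 154 and 209 CPM in deleted 2, 4 and 6, against 154 and 178 CPM in wild-type 1 and 3. Its deleted libraries lay on both sides of the wild-type ones, and the log2 fold change came to -0.04 ± 0.27 (SE; adjusted p = 0.951, edgeR), and to -0.25 ± 0.16 with deleted 6 left out (adjusted p = 0.369, edgeR).

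Per kilobase of exon, Dgkz and Dgkd led the kinases in every library. Dgkz gave 37.2%, 42.2% and 54.1% of the summed level of the 6 genes in deleted 2, 4 and 6, against 41.5% and 38.7% in wild-type 1 and 3. Dgkd gave 42.2%, 38.4% and 25.9% in deleted 2, 4 and 6, against 29.1% and 29.8% in wild-type 1 and 3, so the order of these leading genes differed between libraries. The type I genes together gave 14.5%, 12.7% and 8.92% in deleted 2, 4 and 6, against 23.9% and 26.2% in wild-type 1 and 3, mostly through Dgkg at 8.52%, 6.05% and 1.08%, against 15.4% and 15.5%. The sum of the 6 genes was 52.8, 58.0 and 61.7 CPM per kb in deleted 2, 4 and 6, against 59.4 and 73.2 CPM per kb in wild-type 1 and 3, so wild-type 1 lay within the deleted range. Per kilobase of coding sequence the share of Dgkg was larger, at 15.2%, 10.9% and 1.94% in deleted 2, 4 and 6, against 25.8% and 26.0% in wild-type 1 and 3, where it lay above Dgkd (23.1% and 23.6%).

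Across all 5 libraries no RasGRP or diacylglycerol kinase gene passed edgeR's test, and neither did any other gene. edgeR called 0 of 10 members, against 0% of the 16120 tested genes, and 0 of 10 had an unadjusted p under 0.05, against 14.9% of tested genes. DESeq2 called 0 of 10 (8.80% of tested genes) and limma-voom 1 of 10, Dgkg (13.5%). Without deleted 6 edgeR called 1 of 10, Dgkg, against 13.0% of 15787 genes, a share near the background, and 5 of 10 had an unadjusted p under 0.05 there (1 higher and 4 lower), against 28.6%. In lane 4 alone it called 0 of 10, against 2.03%, with 3 of 10 at an unadjusted p under 0.05, against 20.3%.

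Values that did not overlap between the groups were also about as common among the members as elsewhere. All deleted libraries were below both wild-type ones for 3 of 10 members (Rasgrp2, Dgka and Dgkg), against 23.7% of tested genes, and above them for 0 of 10, against 22.4%. With deleted 6 left out, deleted 2 and 4 lay below both wild-type libraries for 5 of 10 (Rasgrp1, Rasgrp2, Dgka, Dgkg and Dgkz), against 29.8%, and above for 2 of 10 (Rasgrp4 and Dgkd), against 28.7%. The median log2 fold change of the 10 members was 0.12, beside 0.01 over all tested genes, and -0.22 beside -0.01 without deleted 6.

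**Figure D3:**
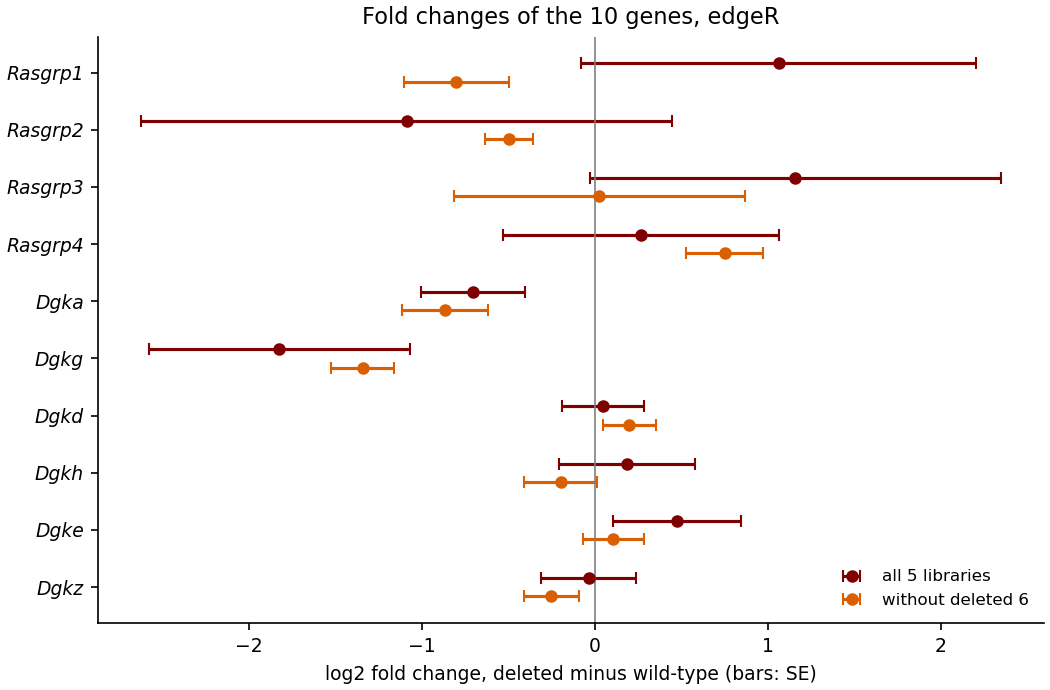
log2 fold change (deleted minus wild-type) of each gene in edgeR, with bars of 1 SE, for all 5 libraries (upper point of each pair) and without deleted 6 (lower point). Rasgrp1 changes sign, at 1.06 and -0.80, and Dgkg lies below 0 in both, at -1.82 and -1.34.

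Deleted 6 was the highest or the lowest of the 5 libraries for 9 of the 10 members, against 74.1% of all tested genes. It was highest for Rasgrp1, Rasgrp3, Dgkh, Dgke and Dgkz and lowest for Rasgrp2, Rasgrp4, Dgkg and Dgkd. The range of log2 CPM over the 5 libraries was 7.57 for Rasgrp2, wider than in 99.1% of tested genes, and 4.28 for Rasgrp3, 4.08 for Dgkg and 3.45 for Rasgrp1. It was 2.68 for Rasgrp4 and 0.48 to 1.31 for the other 5 kinases, beside a median of 1.25 over all tested genes.

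Genes whose profile over the 5 libraries was closest to Rasgrp2 were found by the distance between log2 CPM profiles, each centred on its own mean, among 9073 genes. They were Ubash3a, a negative regulator of T cell receptor signalling, at a distance of 0.29, Ska1, a spindle and kinetochore protein, at 0.30, and E2f7, an E2F family repressor, at 0.36, beside a median distance of 6.53. Ubash3a was at 24.5, 18.9 and 0.113 CPM in deleted 2, 4 and 6, against 33.4 and 35.9 CPM in wild-type 1 and 3. The closest to Rasgrp3 were Pltp, a phospholipid transfer protein, Nrp1, a semaphorin and VEGF co-receptor, and Tlr8, an RNA-sensing Toll-like receptor, at distances of 1.30, 1.35 and 1.51, beside a median of 3.17. The profiles rest on 5 shared libraries, of which deleted 6 sets most of the distance for Rasgrp2.

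Genes around both families were taken from 8 lists of the pathway, with 100 tested genes. The lists were chosen with earlier results of these data known, so their shares beside those of all tested genes only describe them. Of these, edgeR called 0 across all 5 libraries, with 20 higher and 6 lower in deleted libraries at an unadjusted p under 0.05, against 9.44% and 5.42% of all tested genes. DESeq2 called 13 higher and 5 lower (5.75% and 3.05% of tested genes), and limma-voom 16 and 8 (7.63% and 5.87%). With deleted 6 left out, 20 were called higher and 5 lower by edgeR, against 7.89% and 5.07% of the genes tested there. The median log2 fold change of the 100 genes was 0.26 across all 5 libraries and 0.26 without deleted 6.

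The GTPases that RasGRP proteins load lay mostly on the higher side. Of 12 RAS and RAP GTPases 7 lay above both wild-type libraries in every deleted library and 1 below, against 22.4% and 23.7% of all tested genes. Their median log2 fold change was 0.82 across all 5 libraries and 0.44 with deleted 6 left out. Rras2, a RAS relative also called TC21, was at 6.12, 6.19 and 33.9 CPM in deleted 2, 4 and 6, against 1.20 and 1.87 CPM in wild-type 1 and 3. With deleted 6 left out, 3 of 12 were called higher and 0 lower by edgeR, against 7.89% and 5.07% of tested genes. These were Rras2 at 2.00 (adjusted p = 0.0125), Rit1 at 0.79 (0.0146) and Rras at 0.85 (0.0365), the 3 with the smallest p.

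Other exchange factors went both ways. Of 12 tested, 5 lay above and 4 below both wild-type libraries in every deleted library, against 22.4% and 23.7% of all tested genes. Without deleted 6, 2 rose, the RAL exchange factors Rgl1 (1.56, edgeR adjusted p = 0.0130) and Ralgds (0.80, 0.0277), and 1 fell, Rapgef3, the cAMP-driven RAP exchange factor EPAC1 (-2.02, 0.0190), against 7.89% and 5.07% of tested genes. Rapgef3 was at 2.50, 1.51 and 0.701 CPM in deleted 2, 4 and 6, against 6.39 and 9.997 CPM in wild-type 1 and 3. Of 14 GTPase-activating proteins, which switch RAS and RAP off, none passed edgeR with or without deleted 6 (0 at an unadjusted p under 0.05 across all 5 libraries; DESeq2 called 0 and limma-voom 1 lower), with 1 above (22.4% of all tested genes) and 5 below (23.7%) in every deleted library. Their smallest p belonged to Rasal1, Sipa1, which acts on RAP1, and Rap1gap2, at -1.22, -0.76 and -0.87. Of 10 RAF, MEK and ERK pathway genes none passed edgeR either (1 higher at an unadjusted p under 0.05 across all 5 libraries; DESeq2 and limma-voom called 0), with 3 above (22.4% of all tested genes) and 0 below (23.7%). The MEK-ERK scaffold Lamtor3 and the RAS-binding scaffold Shoc2 were among those with the smallest p, at 0.96 and 0.31.

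Enzymes that make or use diacylglycerol and phosphatidic acid held the pathway gene with the smallest p. Ppap2b, a lipid phosphate phosphatase that turns phosphatidic acid into diacylglycerol, was at 8.34, 10.8 and 8.64 CPM in deleted 2, 4 and 6, against 0.796 and 0.775 CPM in wild-type 1 and 3. All 3 deleted libraries lay near each other and above both wild-type ones, with a log2 fold change of 3.56 ± 0.34 (SE; adjusted p = 0.103, edgeR). Leaving out deleted 6 gave 3.62 (adjusted p = 0.00146, edgeR). The list also holds Pld3 and Pld4 as phospholipase D family members, whose action on these lipids was not tested. Of its 22 tested genes 10 lay above and 3 below in every deleted library, against 22.4% and 23.7% of all tested genes. With deleted 6 left out, 6 were called higher and 3 lower by edgeR, against 7.89% and 5.07%. Among those lower there were Pld4, a phospholipase D family member (-1.62, adjusted p = 0.0339), and Dgat1, which uses diacylglycerol to make triglyceride (-0.89, 0.0310).

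Other proteins that bind diacylglycerol had a median log2 fold change of 0.81 over 16 tested genes, with 9 above and 1 below in every deleted library, against 22.4% and 23.7% of all tested genes. With deleted 6 left out, 5 were called higher and 0 lower by edgeR, against 7.89% and 5.07%. Prkca, a conventional protein kinase C, was at 21.1, 8.95 and 9.36 CPM in deleted 2, 4 and 6, against 2.70 and 4.04 CPM in wild-type 1 and 3 (2.16 without deleted 6, edgeR adjusted p = 0.0260). Prkcq, the protein kinase C of T cell synapses, had 493, 218 and 6 counts in deleted 2, 4 and 6, against 5 and 1 counts in wild-type 1 and 3. Chn1, a chimaerin that acts on RAC, had 36, 22 and 12 counts in deleted 2, 4 and 6, against 1 and 3 counts in wild-type 1 and 3.

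Of 12 tested genes of the phospholipase C family, which also holds members without catalytic activity, 3 lay above and 1 below in every deleted library, against 22.4% and 23.7% of all tested genes. With deleted 6 left out, 3 were called higher and 1 lower by edgeR, against 7.89% and 5.07%. Plcb1, a G protein-driven isoform, was the lower one, at 0.736, 0.868 and 0.430 CPM in deleted 2, 4 and 6, against 5.69 and 7.31 CPM in wild-type 1 and 3 (log2 fold change -3.25 across all 5 libraries, adjusted p = 0.131, and adjusted p = 0.00303 without deleted 6, edgeR). Plcxd2 and Plcl1, a phospholipase C-like protein without catalytic activity, were among the higher, at 1.93 and 3.31 without deleted 6 (adjusted p = 0.0203 and 0.0414).

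**Figure D4:**
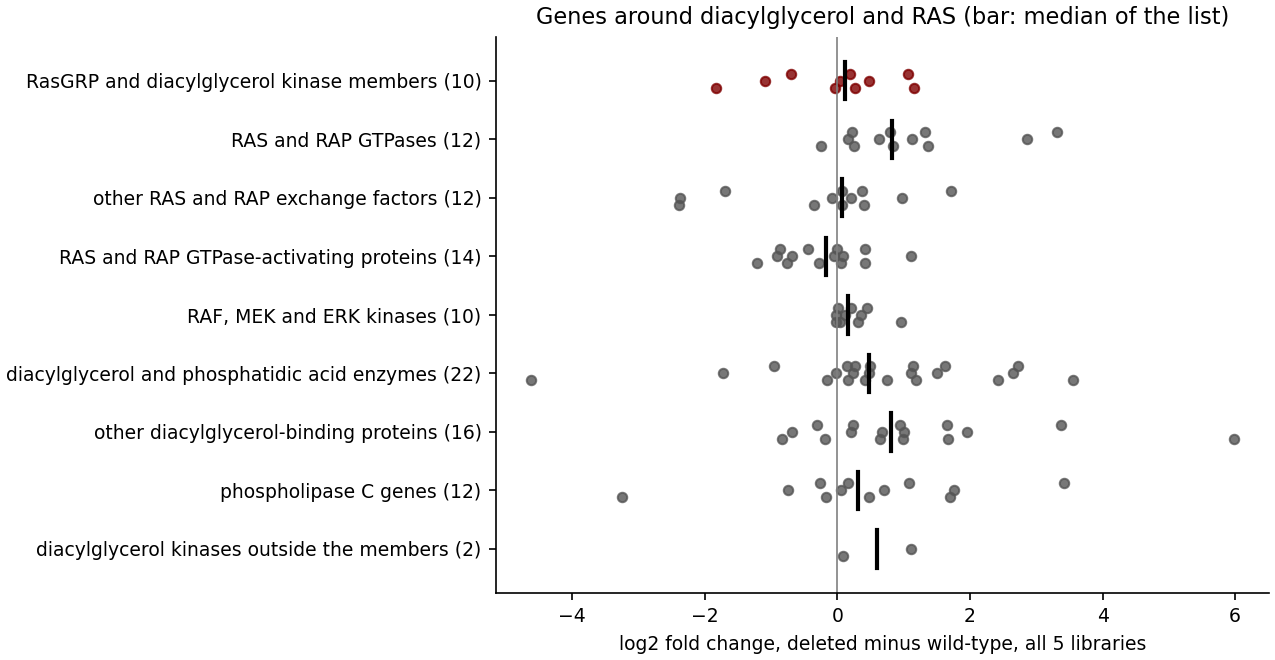
log2 fold change (deleted minus wild-type, edgeR, all 5 libraries) of each tested gene in the 10 members and in 8 pathway lists; each point is 1 gene, the bar is the list's median and the number of genes is in brackets. The members spread around a median of 0.12 (-0.22 without deleted 6), the RAS and RAP GTPases around 0.82 (0.44 without deleted 6).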

How the data were processed

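Poly(A)-primed cDNA libraries were made with SMART-Seq v4 and Nextera XT, per the labels' protocols; neither kit marks strand. The submitters' processing notes name STAR, bcl2fastq 1.8.4, DESeq2 1.12.4 and the mm10 build; how reads were counted is not stated there. The authors deposited whole-number read counts for 46603 genes per library, plus 5 rows that name no gene and stayed out of all sums (unaligned reads were 2.48% to 4.13%, ambiguous reads 2.36% to 2.78% and multiply aligned reads 13.0% to 15.1% of a table). The authors' deposited normalized signal equals these counts over 1 size factor per library; it chose the members by symbol and served as an alternative unit. The authors' deposited log2-scale table was only checked for its unit.

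Counts were filtered with filterByExpr, scaled with TMM and entered in edgeR's quasi-likelihood test (edgeR 4.0.16, limma 3.58.1, DESeq2 1.42.0, R 4.3.3) on genotype, with 3 residual degrees of freedom, with Benjamini-Hochberg adjustment of p-values over all tested genes; an adjusted p under 0.05 was a call. SE is the log2 fold change over the square root of F. The test was checked on simulated counts. No library was a copy of another (chi-square per gene of at least 50.2 for each pair). Lengths and positions are from GENCODE M21 on GRCm38. Members and lists were chosen with earlier results of these data known. Named pathway genes were up to 3 per list with the smallest unadjusted p, of which 1 is not reported here; nearest profiles were sought for the 2 members with the widest range among genes whose mean log2 CPM reached 3. Alternatives were DESeq2, limma-voom, RLE factors, no filter and a stricter filter (1 CPM in 3 libraries), each library left out, lane 4 alone, coding length and the normalized table.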

Additional observations from a re-analysis of the deposited data

How the results depend on the processing

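With other tests the number of genes called higher and lower in deleted libraries was 927 and 492 with DESeq2, 1230 and 947 with limma-voom, 163 and 115 with no filter on low counts, 211 and 131 in lane 4 alone, and 0 and 0 with RLE factors or the stricter filter. Leaving out single libraries gave 0 to 1245 genes higher and 0 to 800 lower, with all calls made without deleted 6. Members called lower were 0 to 1 with single libraries left out and 1 with limma-voom, in each case Dgkg, and members called higher were 0 under every alternative. Fold changes that turned were those of Rasgrp1 (-0.61 with limma-voom, -0.85 in lane 4, -0.80 to 1.54 with single libraries left out), Rasgrp3 (-0.79 in lane 4), Rasgrp4 (-0.081 to 0.75 with single libraries left out), Dgkd (-0.12 to 0.23), Dgkh (-0.11 with limma-voom, -0.40 in lane 4, -0.20 to 0.42 with single libraries left out) and Dgkz (-0.25 to 0.13); none of these was a call. Rasgrp2, Dgka, Dgkg and Dgke kept their direction under all 11 alternatives. With coding length in place of exon length, Rasgrp2 averaged 86.4% and Rasgrp1 3.67% of the RasGRP sum in wild-type, Dgkz 34.6% in deleted and 29.2% in wild-type and Dgkd 23.3% in wild-type of the kinase sum, and the log2 ratio of the RasGRP sum was -0.70; the cause lies in the lengths, as the counts are the same. No paired analysis was possible because the groups share no replicate number. Depth limits Rasgrp3, with 12 counts in wild-type 1, and Rasgrp2 in deleted 6, with 22 counts.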

Other observations

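Diacylglycerol kinase genes outside the 10 members gave values of 2 kinds. Dgkq, the type V kinase, was at 13.98, 15.5 and 25.4 CPM in deleted 2, 4 and 6, against 14.6 and 19.8 CPM in wild-type 1 and 3, so deleted 6 was highest there too. Dgki, a type IV kinase like Dgkz, was at 1.93, 2.43 and 0.407 CPM in deleted 2, 4 and 6, against 0.820 and 0.648 CPM in wild-type 1 and 3. Without deleted 6 Dgki rose by 1.58 on the log2 scale (edgeR adjusted p = 0.0446), and across all 5 libraries the difference did not pass (unadjusted p = 0.229, adjusted p = 0.524). Dgkb and Dgkk did not pass the filter on low counts, Dgkb with at most 0.0175 CPM in a deleted and 0.0723 CPM in a wild-type library, Dgkk with at most 0.203 CPM in a deleted and 0.0540 CPM in a wild-type library.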
